A study of Mus musculus with 4 samples.

Results

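The genes described here are 37 skeletal muscle genes that encode parts of the sarcomere or mark fibre types, measured in whole mouse ear. They were taken from a list of symbols, and each gene is represented by the probe set whose only gene symbol is that gene. All 37 were found among 19938 named genes, each with a single probe set. For the comparison of fibre types, 14 members were taken as fast-fibre genes, 5 as slow-fibre genes, and 18 belong to neither class.

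RNA came from whole ears of female mice aged 8 weeks, hybridised to 4 arrays that form 4 groups of 1. The Traf6f/f mice (here f/f) carry floxed alleles of Traf6, an adaptor of Toll-like, IL-1 and IL-17 receptor signalling, and the Traf6EKO mice (here EKO, for arrays so labelled) lack it in the epithelium (in keratinocytes, by the series title). The labels do not name the Cre driver. In each genotype 1 array is of untreated ear. The other is of ear that received 10 mg per day of a cream with imiquimod (IMQ), an agonist of TLR7, for 2 days. The series text states n = 2, and whether RNA of several mice was pooled on an array is unknown here. With 1 array per group there is no replicate error, and a difference between a pair of arrays has no test. Levels are on the log2 scale of the authors' RMA values, and differences are log2 differences unless a fold is given.

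The mouse ear holds thin sheets of striated muscle besides epidermis, dermis, fat and cartilage. In striated muscle, myosin heavy chains of the thick filament pull on actin of the thin filament, calcium binding to troponin switches the thin filament on, and Z-discs anchor both ends of the sarcomere. Fast and slow fibres use different genes for the same parts, among them myosin heavy chains, troponin subunits and myosin-binding protein C. Fast fibres also carry more calcium pump, calsequestrin and the calcium buffer parvalbumin, so their genes can be read apart from those of slow fibres.

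The muscle label held up in these samples. All 37 members lay at or above the floor, defined as the median level of all named genes on an array (6.93 to 6.98), on 3 arrays, and 36 did so in f/f IMQ ear, where Mylk4 lay below it. Acta1, the actin of the skeletal muscle thin filament, had a level of 12.50 in untreated f/f ear. Traf6 itself lay between 9.30 and 9.65 on the 4 arrays and was higher in EKO by 0.14 untreated and by 0.05 with IMQ. Other cells of the ear keep the gene, and it is unknown here whether the probes fall in the deleted exons. The genotype labels are therefore not checked by Traf6.

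Promoters of 4 members are shown because these genes carry the contrasts below: Mylk4 with the largest IMQ difference, Myh4 as the most fast-type heavy chain, and Tnnc2 with Tnnc1, the fast and slow genes for troponin C. Each is the 250 bases upstream of a RefSeq start (build GRCm38.p6), and capitals mark E-boxes (CANNTG, the core bound by MyoD-family factors, palindromic on both strands) and matches to the MEF2 consensus of 10 bases, searched on both strands. Mylk4 lies on the minus strand at chr13:32783965-32784214, Myh4 on the plus strand at chr11:67237562-67237811, Tnnc2 on the minus strand at chr2:164779735-164779984, and Tnnc1 on the plus strand at chr14:31208062-31208311.
Mylk4: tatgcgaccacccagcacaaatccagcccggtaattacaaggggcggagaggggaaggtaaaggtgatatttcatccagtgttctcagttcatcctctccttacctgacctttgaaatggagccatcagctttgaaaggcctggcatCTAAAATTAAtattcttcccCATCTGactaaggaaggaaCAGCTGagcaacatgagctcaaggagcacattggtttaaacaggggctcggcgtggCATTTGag
Myh4: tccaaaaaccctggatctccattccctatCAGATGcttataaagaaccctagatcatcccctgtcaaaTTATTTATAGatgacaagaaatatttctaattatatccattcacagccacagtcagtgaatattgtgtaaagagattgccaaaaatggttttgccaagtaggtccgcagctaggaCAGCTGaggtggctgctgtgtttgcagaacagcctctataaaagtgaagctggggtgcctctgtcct
Tnnc2: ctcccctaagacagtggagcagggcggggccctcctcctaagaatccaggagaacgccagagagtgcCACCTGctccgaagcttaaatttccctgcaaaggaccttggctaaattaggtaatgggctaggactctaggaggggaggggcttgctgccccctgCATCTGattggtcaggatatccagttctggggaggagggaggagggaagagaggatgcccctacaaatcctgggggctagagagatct
Tnnc1: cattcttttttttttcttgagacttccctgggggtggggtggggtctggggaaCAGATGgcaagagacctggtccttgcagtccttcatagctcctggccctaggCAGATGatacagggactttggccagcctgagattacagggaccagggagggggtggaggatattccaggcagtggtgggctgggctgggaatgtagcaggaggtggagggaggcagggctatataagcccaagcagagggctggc

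The Mylk4 window has a MEF2 match beginning 103 bases before the start and 3 E-boxes at 83, 64 and 8 bases. The Myh4 window has a MEF2 match at 182 bases and E-boxes at 221 and 67 bases. Both troponin C windows hold 2 E-boxes and no MEF2 match, which says only that these letters are not in this window. RefSeq entries were found for 29 of the members, 5 of them with several starts, giving 35 windows. Of these, 28 held an E-box (80.0%, against 66.22% of all 32851 windows), 6 held a MEF2 match (17.14% against 2.92%), and 9 held CATTCC, the MCAT motif read on both strands (25.71% against 12.64%). The CArG box, the site of serum response factor, matched 4 windows (11.43% against 1.47%). Windows of a gene with several starts can overlap and count a site more than once. By gene, 24 of the 29 held an E-box, 6 a MEF2 match, 9 an MCAT motif and 3 a CArG box. MEF2 matches and E-boxes overlapped in 0 of the 35 windows. The 6 genes with a MEF2 match were Mylk4, Myh1, Myh4, Pgam2, Pvalb and Ttn, named after the matches were seen, and the 7 windows of slow-fibre genes held 0. These shares describe the windows and were not tested.

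The 37 members were lower with IMQ in both genotypes, more so in f/f ear. Their median difference was -0.88 in f/f, against a median of -0.01 over all named genes, and -0.29 in EKO, again against -0.01. All 37 were lower in each genotype, where 51.0% and 52.8% of all named genes were. A member was counted when it differed at least 2-fold and reached the floor on an array of the comparison. In f/f, 13 of the 37 were at least 2-fold lower, where 2.63% of 10548 genes above the floor were, and 0 were at least 2-fold higher (background 3.82%). In EKO, 0 members were at least 2-fold lower or higher, against backgrounds of 0.0972% and 0.671% of 10285 genes. At 1.5-fold, 30 members were lower in f/f (background 9.53%) and 3 in EKO, namely Pvalb, Smpx and Tnnt1 (background 0.807%). The difference was smaller in EKO for 35 of the 37, all but Tnnt1 and Tnnc1. In whole ear, fewer muscle fibres, a smaller share of muscle in the tissue RNA and less of these RNAs per fibre cannot be told apart.

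The arrays kept nearly the same order from member to member. The level was lowest in f/f IMQ ear for 35 of the 37 and highest in untreated f/f ear for 33, shares which over 10646 genes above the floor on any array were 36.3% and 31.0%. For 32 members the order from high to low was untreated f/f, untreated EKO, EKO IMQ and f/f IMQ, an order found in 18.1% of those genes. The exceptions at the low end were Tnnc1 and Myf6, both lowest in EKO IMQ ear.

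**Figure D1:**
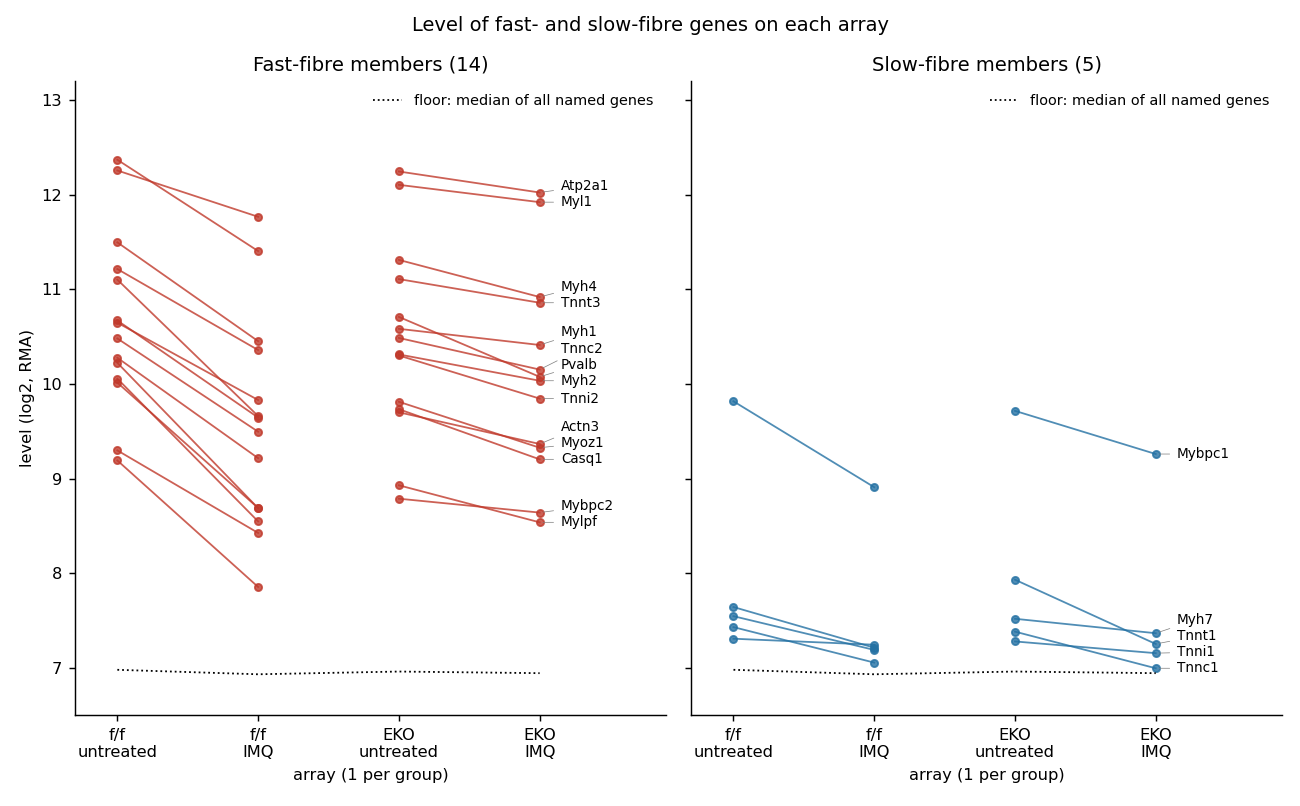
Level (log2, RMA) of the 14 fast-fibre and 5 slow-fibre members on the 4 arrays, 1 per group; each line joins the untreated and the IMQ array of 1 genotype, and the dotted line is the floor. The fast-fibre lines slope down more steeply in f/f than in EKO, and 4 of the 5 slow-fibre genes lie close to the floor.

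IMQ and genotype were also fitted together on all 4 arrays with limma, an additive fit that leaves 1 residual degree of freedom. With 2 arrays per level it weighs an effect against the genotype-by-IMQ difference and not against a spread between like arrays. For IMQ averaged over genotype, 0 of 37 members passed an adjusted p of 0.05 in either direction (0.0% of 10646 genes in each direction). The lowest limma adjusted p among members was 0.1625, which was also the lowest of all genes, and the highest 0.3214. At an unadjusted p under 0.05, 31 of 37 members were lower (background 14.1%) and 0 higher (background 12.3%). Averaged over IMQ, the genotype effect again gave 0 members past the adjusted threshold in either direction (0.0%). At the unadjusted one, only Myf6 was lower (background 1.30%) and 0 members were higher (background 1.93%).

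Among thick filament genes, 9 of 9 were lower with IMQ in f/f, at a median of -0.91 and 4 of them at least 2-fold (background 2.63%). Mylk4, a myosin light chain kinase family member, was at 9.02 in untreated f/f, 6.88 in f/f IMQ, 8.44 in untreated EKO and 8.19 in EKO IMQ ear. The f/f IMQ array stands alone at the low end, 4.40-fold below untreated f/f, while the EKO arrays differed by 0.25. Since that array lies below the floor, where signal nears background, the fold is imprecise.

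The fast heavy chain genes Myh2, Myh1 and Myh4, for the fibre types IIa, IIx and IIb, are neighbouring genes closely related in sequence, so a probe set may read more than its own gene. Myh2 was at 10.28 in untreated f/f, 9.22 in f/f IMQ, 10.31 in untreated EKO and 10.03 in EKO IMQ ear. Myh1 had levels of 10.65, 9.83, 10.58 and 10.41 on the same arrays in that order. Myh4 followed with 11.50, 10.45, 11.31 and 10.92. In all of them the f/f IMQ array was lowest, at 48.0% (Myh2), 56.8% (Myh1) and 48.5% (Myh4) of the untreated f/f value, where EKO kept 82.5%, 88.8% and 76.2%. Myh7, the slow heavy chain gene, was at 7.55, 7.19, 7.52 and 7.37, a narrower range close to the floor.

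The remaining thick filament genes showed both a wide and a narrow response. Mybpc2, the fast myosin-binding protein C, was at 9.19 in untreated f/f, 7.86 in f/f IMQ, 8.79 in untreated EKO and 8.64 in EKO IMQ ear, with differences of -1.34 in f/f and -0.15 in EKO. Its slow counterpart Mybpc1 had levels of 9.82, 8.91, 9.72 and 9.26, and differences of -0.91 and -0.46. Of the fast light chains, Mylpf, the regulatory one, was at 9.30, 8.43, 8.93 and 8.54, and Myl1, an essential one, at 12.26, 11.77, 12.10 and 11.92. Myl1 had the smallest f/f difference of the 14 fast-fibre genes, -0.49.

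Thin filament genes were lower in 8 of 8 cases in f/f (median -0.76) and in 8 of 8 in EKO (-0.32). The troponin complex holds a tropomyosin-binding, an inhibitory and a calcium-binding subunit. For the tropomyosin-binding subunit, fast Tnnt3 was at 11.21 in untreated f/f, 10.36 in f/f IMQ, 11.11 in untreated EKO and 10.86 in EKO IMQ ear, while slow Tnnt1 was at 7.64, 7.21, 7.93 and 7.25. Tnnt3 was thus lower by 0.86 in f/f and 0.25 in EKO, whereas Tnnt1 was lower by 0.43 in f/f and 0.68 in EKO, where its untreated array was the highest of the 4. For the inhibitory subunit, fast Tnni2 was at 10.48, 9.50, 10.30 and 9.85, and slow Tnni1 at 7.43, 7.06, 7.28 and 7.16.

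For IMQ in f/f, the calcium-binding subunit gave the widest gap between troponin partners, and in EKO the narrowest. Tnnc2, the fast gene, was at 10.67, 9.65, 10.49 and 10.15 on the same arrays. Tnnc1, the slow gene, was at 7.31, 7.25, 7.38 and 6.997, so that IMQ made a difference of -1.02 for Tnnc2 and -0.06 for Tnnc1 in f/f but of -0.33 and -0.39 in EKO. The other thin filament genes are shared by both fibre types: Neb, the giant ruler protein nebulin, differed by -0.94 in f/f and -0.30 in EKO, and Acta1 by -0.66 and -0.21.

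All 9 genes of the Z-disc and the elastic filament were lower with IMQ in f/f, at a median of -0.92. Of these, 4 were at least 2-fold lower (background 2.63%). In EKO all 9 were lower too (median -0.34). Actn3, the alpha-actinin of fast fibres, was at 10.22 in untreated f/f, 8.69 in f/f IMQ, 9.70 in untreated EKO and 9.37 in EKO IMQ ear. Myoz1, a calcineurin-binding Z-disc protein of fast fibres, was at 10.06, 8.55, 9.81 and 9.33. These were the largest f/f differences after Mylk4, 2.90-fold and 2.84-fold lower, with 1.26-fold and 1.40-fold in EKO. Actn2, the alpha-actinin present in all fibres, differed by only -0.33 in f/f and -0.29 in EKO.

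Ttn, for the elastic filament titin, was at 11.54, 10.48, 11.34 and 11.00 on the arrays in the same order. Tcap, which caps titin at the Z-disc, was at 8.57, 7.53, 8.55 and 8.14. Both were just past 2-fold lower in f/f (2.08-fold and 2.06-fold). The other Z-disc members did not reach 2-fold: Myot (myotilin) was at -0.92 in f/f and -0.51 in EKO, Smpx at -0.88 and -0.59, the intermediate filament gene Des at -0.66 and -0.27, and Ldb3 at -0.50 and -0.23. Des is also a gene of smooth muscle.

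Calcium handling genes had the largest median in f/f, -1.08, with 5 of 5 lower and 3 at least 2-fold (background 2.63%). Their median in EKO was -0.26. Pvalb, the calcium buffer of fast fibres, was at 11.10 in untreated f/f, 9.66 in f/f IMQ, 10.71 in untreated EKO and 10.08 in EKO IMQ ear. Casq1, the calcium store of fast sarcoplasmic reticulum, was at 10.01, 8.69, 9.73 and 9.20. In these genes the EKO difference was also among the larger ones, 1.55-fold for Pvalb and 1.44-fold for Casq1. Ryr1, the calcium release channel, was at 9.55, 8.47, 9.41 and 9.15, and Atp2a1, the calcium pump of fast fibres, at 12.37, 11.40, 12.24 and 12.02. Cacna1s, the voltage sensor, differed by -0.82 in f/f and -0.21 in EKO.

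Of the 5 genes of energy metabolism, all were lower in f/f (median -0.82) and in EKO (-0.26). Pygm, the muscle glycogen phosphorylase, was at 10.90 in untreated f/f, 9.65 in f/f IMQ, 10.77 in untreated EKO and 10.50 in EKO IMQ ear, and was the only one past 2-fold in f/f (2.39-fold). Creatine kinase Ckm (-0.88 in f/f, -0.25 in EKO), myoglobin Mb (-0.82 and -0.39), the enolase Eno3 (-0.82 and -0.26) and the phosphoglycerate mutase Pgam2 (-0.59 and -0.22) stayed short of it. Myf6, the only transcription factor among the members, was at 8.43, 7.78, 8.06 and 7.57, with a difference of -0.65 in f/f and -0.49 in EKO.

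**Figure D2:**
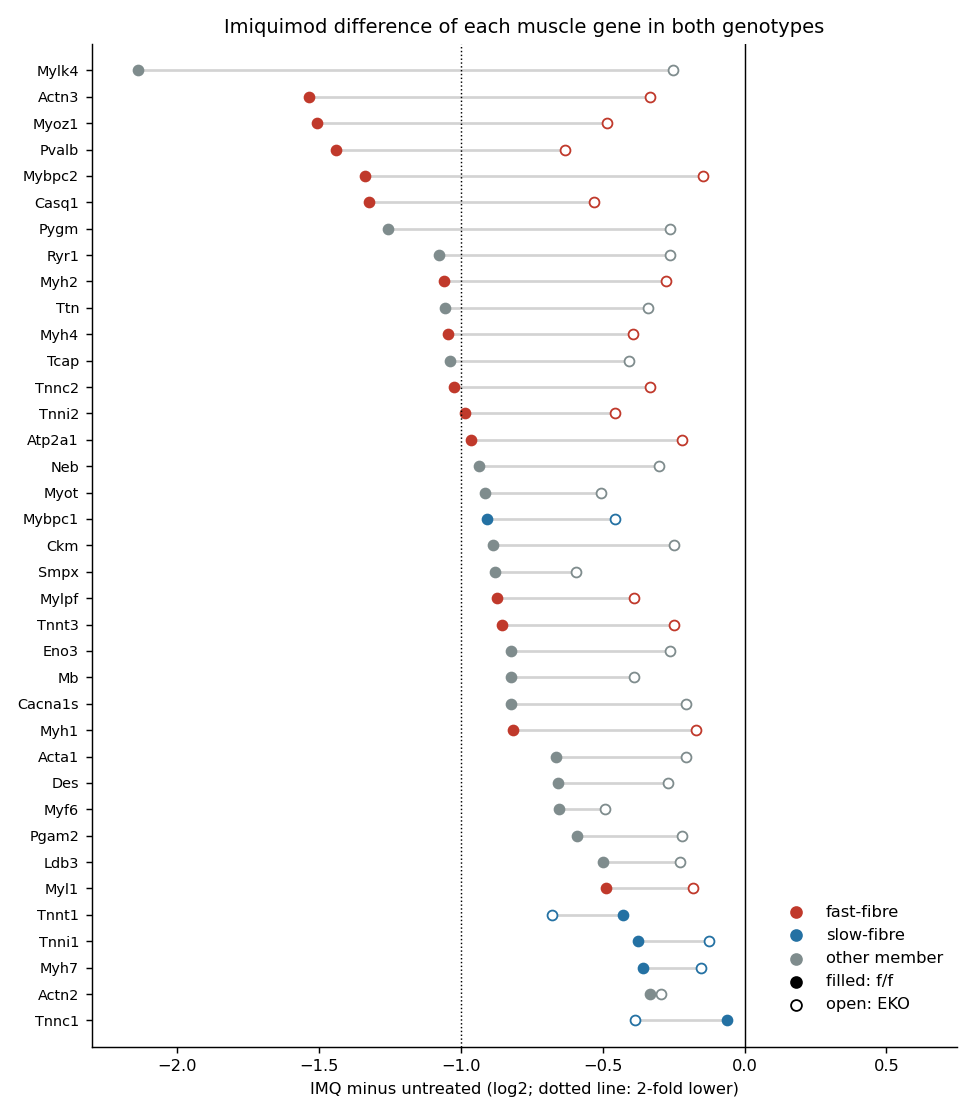
IMQ minus untreated (log2) for each of the 37 members in f/f (filled) and EKO (open), coloured by fibre class; the dotted line marks 2-fold lower and the members are sorted by the f/f difference. The f/f values run from -2.14 (Mylk4) to -0.06 (Tnnc1), while the EKO values lie between -0.68 and -0.12.

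In f/f ear the fast-fibre members were further below untreated with IMQ than the slow-fibre members, and in EKO ear the class medians lay close together. In f/f the median was -1.03 for the 14 fast genes and -0.37 for the 5 slow genes, a gap of -0.66. At least 2-fold lower were 8 of the fast and 0 of the slow genes, where 2.63% of 10548 genes above the floor were. A count of 0 among 5 genes is near that share, and 4 of the 5 lie close to the floor. In EKO the medians were -0.33 and -0.39, a gap of 0.05. Of the fast genes, 10 had a larger f/f difference than every slow gene, and the 4 others (Myh1, Myl1, Mylpf and Tnnt3) were overtaken by Mybpc1 alone. With 1 array per group and 5 slow genes measured on the same arrays, neither gap was tested.

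Pairs of genes for the same part had the same direction in f/f. Apart from Actn2, they use the values that made the class gap, so they are not separate evidence. The slow partners Tnnc1, Tnni1, Tnnt1 and Myh7 lay close to the floor. The fast gene was further below untreated than its partner by 0.96 for Tnnc2 against Tnnc1, 0.61 for Tnni2 against Tnni1, and 0.43 for both Tnnt3 against Tnnt1 and Mybpc2 against Mybpc1. It was so by 0.69 for Myh4, 0.70 for Myh2 and 0.46 for Myh1, each against Myh7, and by 1.20 for Actn3 against Actn2. In EKO the fast gene was the further below untreated for Tnni2 (by 0.33), Myh4 (by 0.24), Myh2 (by 0.13), Actn3 (by 0.04) and Myh1 (by 0.02). The slow gene was for Tnnt3 (0.43), Mybpc2 (0.31) and Tnnc2 (0.05).

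The slow class is measured less well than the fast class. Tnnc1, Tnni1, Myh7 and Tnnt1 lay only 0.33 to 0.66 above the floor in untreated f/f ear, below all other members. Mybpc1 is the only gene of the slow list well clear of the floor. Its f/f difference (-0.91) lay within the range of the fast genes (-1.54 to -0.49). Among all named genes within 1 log2 unit above the floor in untreated f/f ear, 1.68% were at least 2-fold lower with IMQ, against 5.30% of those at least 3 units above it. The members next above those slow genes, Myf6, Tcap, Cacna1s and Mylk4, lay 1.45, 1.59, 1.78 and 2.04 above the floor in untreated f/f ear. They are thus not as near the floor as those slow genes. Their f/f differences were -0.65, -1.04, -0.82 and -2.14. The part of signal level in the fibre-type gap was not tested.

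**Figure D3:**
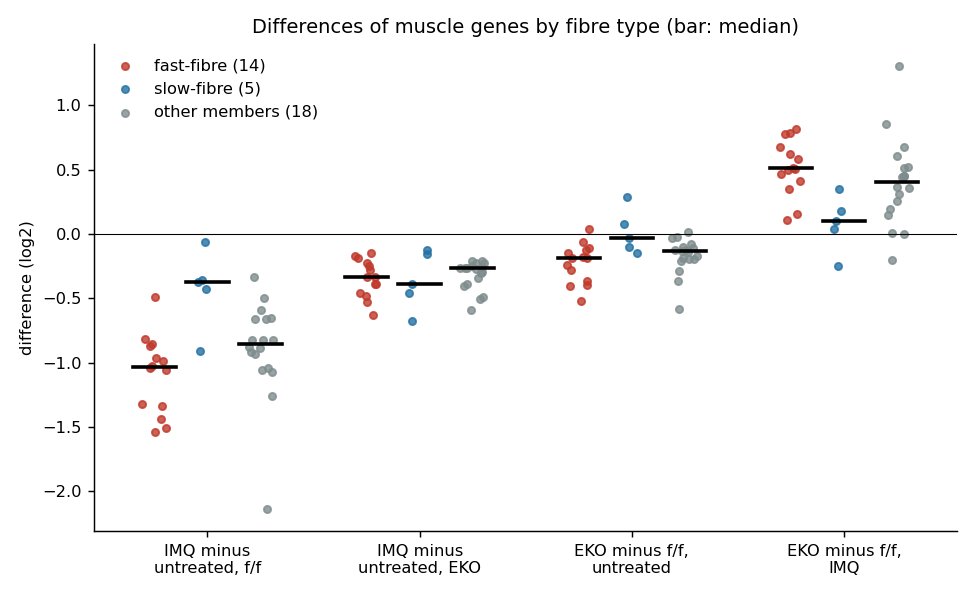
Log2 differences in 4 comparisons for the fast-fibre (14), slow-fibre (5) and remaining members (18); each point is a gene and each bar the median of its class. The fast-fibre median is -1.03 in f/f with IMQ, -0.33 in EKO with IMQ, -0.18 for EKO minus f/f untreated and 0.51 with IMQ.

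Members that were far below untreated in f/f were not reliably so in EKO. No array is common to both IMQ comparisons, and across the 37 genes their differences had a Pearson r of 0.163 and a Spearman rho of 0.287, and 0.237 and 0.341 across the 32 members that are not slow. Genes on the same 4 arrays are not independent, and these values are a description. The EKO difference was a median of 0.375 of the f/f difference over the members and 0.324 over the fast genes, where it ran from 0.110 (Mybpc2) to 0.463 (Tnni2). It was 0.88 for Actn2, 0.754 for Myf6 and 0.675 for Smpx.

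Without IMQ, muscle genes were slightly lower in EKO than in f/f ear. The median was -0.15 (all named genes -0.00), and 33 of 37 were lower, where 50.8% of all named genes were. At least 2-fold lower (background 0.324%) or higher (background 0.0686%) were 0 members. The largest differences were in Mylk4 (-0.58) and Actn3 (-0.52). The 4 higher were Tnnt1 (0.29), Tnnc1 (0.07), Myh2 (0.04) and Mb (0.02). Fast genes had a median of -0.18 and slow genes of -0.03.

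With IMQ, the members were higher in EKO than in f/f ear, at a median of 0.45 (all named genes -0.01), in 35 of 37. Of all named genes, 52.4% were lower. Only Mylk4, 2.47-fold higher, passed 2-fold, where 0.418% of 10282 genes did, and 0 members were at least 2-fold lower (background 0.875%). At 1.5-fold, 9 were higher (background 2.03%). Pygm (0.85), Myh2 (0.82), Mybpc2 (0.79) and Myoz1 (0.78) followed. Smpx and Actn2 had almost the same level in both genotypes (differences of 0.00 and 0.01), and Tnnc1 (-0.25) and Myf6 (-0.20) were lower in EKO. The fast median was 0.51 and the slow median 0.10. Both genotype comparisons use arrays that the IMQ comparisons use too, so their values are set side by side and are not separate evidence.

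Taking the EKO difference minus the f/f difference, the median over members was 0.61 and 35 of 37 were above 0. Of all named genes, 50.9% were below 0. Mylk4 (1.89), Actn3 (1.20), Mybpc2 (1.19) and Myoz1 (1.02) were at least 2-fold higher, against a background of 1.06% of 10646 genes, and 0 were at least 2-fold lower (background 1.18%). At 1.5-fold, 19 were higher (background 3.65%). Tnnc1 (-0.32) and Tnnt1 (-0.25), both slow troponin genes, were the 2 below 0. Both are near the floor: on the f/f IMQ and EKO IMQ arrays, Tnnc1 lay 0.31 and 0.05 above it, and Tnnt1 0.28 and 0.31. The medians were 0.72 for fast and 0.20 for slow genes.

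Most skeletal muscle genes outside the members had the same direction. Of 42 listed, 39 were measured, and 35 were lower with IMQ in f/f (median -0.60) and 37 in EKO (median -0.30). At least 2-fold lower were 8 in f/f (background 2.63%) and 0 in EKO (background 0.0972%). The 4 that were higher in f/f were Xirp1 (0.87), Klhl40 (0.57), Hspb7 (0.33) and Cryab (0.12). Of these, Klhl40 lay below the floor on all 4 arrays. Tmod4, a tropomodulin of muscle thin filaments, differed by -1.88 in f/f and -0.69 in EKO, the AMP deaminase Ampd1 by -1.37 and -0.54, the myosin light chain kinase Mylk2 by -1.36 and -0.37, and the M-band gene Myom1 by -1.34 and -0.48. Slow-type genes outside the members were mixed, with 4 of 9 lower in f/f and 5 of 9 in EKO, and several of them are also used outside skeletal muscle. Of the 9, 6 reached the floor, and among these only Myl2 and Myoz2 were lower in f/f. Among them the slow light chain Myl2, at 8.05 in untreated f/f, 7.45 in f/f IMQ, 8.12 in untreated EKO and 7.55 in EKO IMQ ear, differed by -0.61 in f/f and -0.57 in EKO. The slow Z-disc gene Myoz2 differed by -0.68 and -0.58. The EKO and f/f IMQ differences lay 0.04 apart for Myl2 and 0.09 apart for Myoz2, against at least 0.31 for each of the 14 fast-fibre members. Other slow-type genes lay further apart. The EKO difference minus the f/f difference ran from -0.83 to 0.44 over the 9 genes, and from -0.32 to 0.45 over the 5 slow-fibre members. Myl2 came within 1 log2 unit of the floor on both IMQ arrays. Ankrd2, a stretch-responsive gene, was higher in f/f with IMQ (0.78) and at -0.06 in EKO. Also higher in f/f were Csrp3 (0.61, and -0.20 in EKO), Atp2a2 (0.58 and 0.17) and Tpm3 (0.32 and 0.10). Casq2, Myh7b and Myl3 lay below the floor on all 4 arrays.

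Regulators of muscle were mostly near background, 2 of the 8 measured reaching the floor. Mstn (myostatin, an inhibitor of muscle growth) was at 8.15 in untreated f/f, 6.13 in f/f IMQ, 7.58 in untreated EKO and 7.22 in EKO IMQ ear, the same order of arrays as Mylk4, and its f/f IMQ value lay below the floor. Mef2c differed by -0.88 in f/f and -0.35 in EKO. All 7 neuromuscular junction genes lay below the floor on every array, with differences between -0.39 and -0.04 in f/f. Of 7 atrophy and developmental genes, 4 were lower and 3 higher with IMQ in f/f (median -0.14), and 6 were lower in EKO (median -0.16). The ubiquitin ligase genes Fbxo32 (-1.24 in f/f, -0.57 in EKO) and Trim63 (-0.45 and -0.41) were lower with IMQ, as was the embryonic heavy chain Myh3 (-0.51 and -0.27). Gadd45a, a stress-response gene, differed by 0.23 in f/f and 0.04 in EKO.

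Smooth muscle markers had medians near 0. Of 8 smooth muscle markers, 4 were lower in f/f and 2 in EKO, with medians of 0.02 and 0.06 and a summed level of 10.69 to 10.78. Acta2, the smooth muscle actin, lay between 9.31 and 9.44 on the 4 arrays. Only 5 of the 8 reached the floor in the f/f comparison and 4 in the EKO one. Among those 5, Synpo2 (-0.44) and Myh11 (-0.38) were lower in f/f, Smtn was higher (0.16), and Acta2 (-0.01) and Tagln (-0.00) hardly differed. In EKO, Synpo2 differed by 0.03 and Myh11 by 0.11. The median over all 6 cardiac markers was -0.21 (f/f) and -0.02 (EKO), but only 2 of them reached the floor. Of these 2, Tnnt2, troponin T of heart and developing muscle, differed by -0.51 in f/f and -0.52 in EKO. The other, Myl4, differed by -0.45 and -0.12.

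Fat markers had the same array order as the muscle genes. All 8 measured adipocyte markers were lower with IMQ in f/f, at a median of -1.63 and 7 of them at least 2-fold (background 2.63%). They were also lower with IMQ in EKO (-0.43), and lower in EKO than in f/f without IMQ (-0.52). With IMQ they were higher in EKO than in f/f (0.60). Their summed level ran from 12.26 in f/f IMQ to 13.72 in untreated f/f ear, with untreated EKO (13.17) and EKO IMQ (12.75) between, the same order as the members' summed level of 15.05, 15.93, 15.77 and 15.47. The median of cartilage markers was -0.16 with IMQ in f/f ear and -0.20 in EKO ear, that of fibroblast markers -0.30 and -0.25, of endothelial markers -0.40 and -0.19, and of the 3 measured Schwann cell markers -0.41 and -0.23. Stress keratinocyte markers, 6 of 6 higher in each genotype (3.95 and 2.04), and neutrophil markers (2.76 and 0.67) went the other way, and basal keratinocyte markers had medians of 0.38 and -0.03. The part of tissue make-up in the muscle result was not tested.

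**Figure D4:**
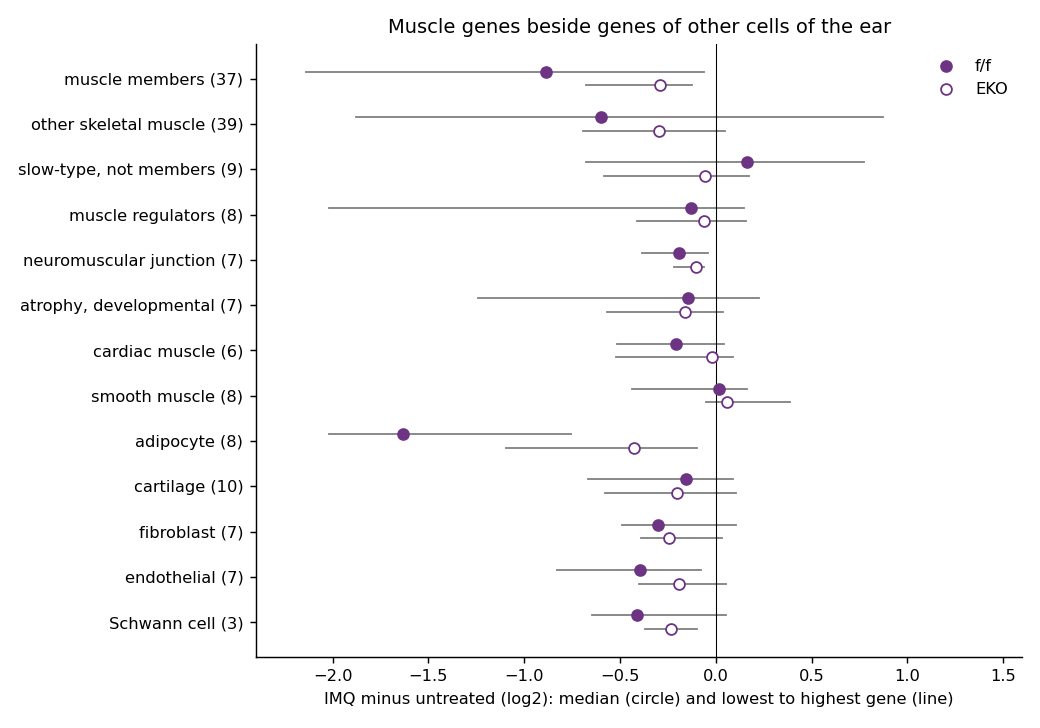
IMQ minus untreated (log2) in f/f (filled) and EKO (open) for the muscle members and for lists of other genes, with the number measured in brackets; circles are medians and lines run from the lowest to the highest gene. Only the adipocyte list has a lower f/f median (-1.63) than the members (-0.88), and smooth muscle lies at 0.02.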

How the data were processed

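Affymetrix Mouse Gene 1.0 ST arrays were used for whole-ear RNA, per the labels' protocols. The deposited values are RMA output, per the submitters' processing notes, on a log2 scale as the values show. No RMA version or settings were given in the sources used here. RMA gives arrays like distributions, so a shift shared by most genes would not be seen.

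Of 35556 probe sets, 21789 carry a single symbol in the platform annotation supplied, and the one with the highest mean stood for each gene. All 37 member symbols matched RefSeq (GRCm38.p6) by Entrez identifier. Members and lists were chosen with earlier results of these data known. Members passing the 2-fold rule in a comparison and all fast and slow genes are given on every array. From each context list the largest f/f differences are named, and from marker lists the brightest genes. Some further genes are named to show the spread of a list. A gene was called at 2-fold if at or above the floor. Averaged effects were fitted with limma 3.58.1 (lmFit, eBayes with trend) in R 4.3.3 with Benjamini-Hochberg adjustment over 10646 genes, and the step was tested on simulated data. Other steps used Python 3.11.15, matplotlib 3.10.9, scipy 1.17.1, pandas 2.3.3 and numpy 2.4.6. Alternatives were other scalings, probe set means, a 1.5-fold threshold, no floor, other list statistics and memberships, and other limma settings. The number of arrays limits the precision.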

Additional observations from a re-analysis of the deposited data

Results flagged for a closer look

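Some genes and lists had opposite signs for EKO minus f/f without and with IMQ, which was not tested. Of 176 genes in the muscle and marker lists, 8 are given because both differences were at least 0.5 in size, 2 of them among the 37 members. The same held for 82 of 10646 genes above the floor (0.77%). For Mylk4 the difference was -0.58 without and 1.30 with IMQ, a change of 1.89. For Actn3 it was -0.52 and 0.68, a change of 1.20. Outside the members, the changes were 1.66 for Mstn, 1.34 for Adipoq, 1.07 for Cidec and 1.42 for Pck1, the last 3 being fat markers. Krt16, a stress keratin, and Cxcr2, a neutrophil receptor, went from higher to lower in EKO, with changes of -1.60 and -1.71.

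Of 24 lists, 10 had opposite medians of at least 0.1 in size. The median over all members was -0.15 without and 0.45 with IMQ, with a median change of 0.61. The median change was 0.72 for the fast-fibre genes and 0.51 for members of neither fibre class. By role it was 0.65 for the thick filament, 0.49 for the thin filament, 0.41 for the Z-disc and elastic filament, 0.79 for calcium handling and 0.56 for energy metabolism. These lists share members. The adipocyte list had a larger median change, 1.08, and the stress keratinocyte list one of -1.68 in the opposite direction, so the sign change is not particular to muscle genes. Each gene's change equals its EKO minus f/f difference of the IMQ differences and adds no separate measurement.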

How the results depend on the processing

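Of 163 alternatives to 24 results, 154 stayed within 0.1 (log2) for a median, or within 1.5 times for a count, and 0 reversed a median of at least 0.1. Part of these could not move. All 37 members reached the floor in every comparison, so the floor settings left their values and counts unchanged. Median centring cancels in a fast-minus-slow gap. The limma counts of members were 0 under every setting. The 154 is therefore not a measure of robustness. The fast-minus-slow gap in f/f widened to -0.78 after cyclic loess (-0.778) and after full quantile normalization (-0.777). Without Mybpc1 in the slow list, the gap became -0.06 in EKO (-0.065) and 0.74 for the difference of IMQ differences (0.739), which means of the lists put at 0.680. At a 1.5-fold threshold, 30 members were lower with IMQ in f/f (9.53% of all genes above the floor) and 3 in EKO (0.807%), 9 were higher in EKO than in f/f with IMQ (2.03%), and 19 were higher in the difference of differences (3.65%). Cyclic loess, quantile scaling and median centring shifted the median of all genes by at most 0.054. Each member has a single probe set, so the mean of probe sets changes members only through the floor and the genes fitted. No paired analysis was possible because each group holds 1 array, and leaving out an array of the limma fit leaves no residual degree of freedom. Signal close to the floor limits what can be said of Tnnc1, Tnni1, Myh7 and Tnnt1.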
